A study of Mus musculus with 2 samples.

Results

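The transcription factor genes Pitx1, Pax9, Sox2, Foxe1, Tfap2a and Tfap2c were followed across keratinocyte states of the mouse cheek lining. They were chosen by gene symbol as factors that mark oral epithelium, and make up 6 of the 27998 genes counted. Each was described in cells binned by the summed level of the differentiation keratins Krt4 and Krt13 (below 80, 80 to 350 and at least 350 UMIs per 10000), in cells with Krt7+Krt18 of at least 5, and in cells with Dcn of at least 15. A UMI, or unique molecular identifier, marks 1 captured RNA molecule, and a level is the number of a gene's UMIs in every 10000 UMIs of the cells summed.

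The cells came from buccal mucosa of 12-week-old female C57BL/6 mice, for which the labels name no treatment, and were sorted for a high surface level of CD104 (β4 integrin, encoded by Itgb4), which marks the basal layer. Tissue of 10 mice was pooled into 1 suspension, which was divided into 2 technical replicates, library 1 and library 2, on the 10x Chromium platform. There is thus 1 independent sample, differences between mice cannot be seen, and no significance test was possible. A gene was called higher or lower when its level differed at least 1.5-fold in the same direction in both libraries and averaged at least 0.1. Intervals are 95% and cover counting error only.

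Pitx1 is a bicoid-type homeodomain factor of the oral ectoderm and hindlimb, and Pax9 is a paired-box factor needed for teeth and palate. Sox2 is an HMG-box factor of foregut, oral and taste progenitors, and Foxe1 is a forkhead factor of thyroid and palate. Tfap2a and Tfap2c encode AP-2 factors, which act in surface ectoderm and its keratinocytes. In stratified oral epithelium, basal cells rich in Krt5 and Krt14 give rise to suprabasal cells rich in Krt4 and Krt13.

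Of 16291 barcodes, 15470 passed the filters (6907 in library 1 and 8563 in library 2), and 96 of the barcode sequences kept occurred in both libraries. The bins held 7185 cells below 80, 4312 from 80 to 350 and 3502 at 350 or above. Another 122 cells passed the Krt7+Krt18 limit, 290 passed the Dcn limit, and 59 cells with immune markers were set aside first. The median depth was 5871, 7432.5 and 12984.5 UMIs per cell in the 3 bins, from low to high. The share of cycling cells was 52.7%, 39.6% and 3.71%, and the median mitochondrial share was 4.63%, 4.28% and 3.26%. The 6 basal markers, which did not define the bins, summed to 11.1 and 11.3 at 350 or above, against 133.7 and 132.5 below 80. Itgb4, the gene of the protein used for sorting, had 0.127 and 0.118 at 350 or above, against 1.27 and 1.16 below 80.

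Pitx1, Pax9, Sox2, Foxe1 and Tfap2a stayed within 1.5-fold between the most and the least differentiated bins, and Tfap2c was lower in the most differentiated one. Tfap2c was the member called lower at 350 or above against below 80, and none was called higher, in a comparison where 33.3% of 7185 genes were called lower and 9.09% higher. With scaling by total UMIs, the median log2 ratio over all tested genes was -0.35 and the median absolute ratio was 0.53. The members' median absolute log2 ratio was 0.13 with the same scaling. Scaling by the median of gene ratios, taken over genes of at least 0.1 in both bins, gave 1561 genes lower and 1025 higher in place of 2395 and 653. That scaling raised the log2 ratio of each member, as given below. Depth, cycling and mitochondrial share moved with these bins, and their part in the result was not tested.

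**Figure D1:**
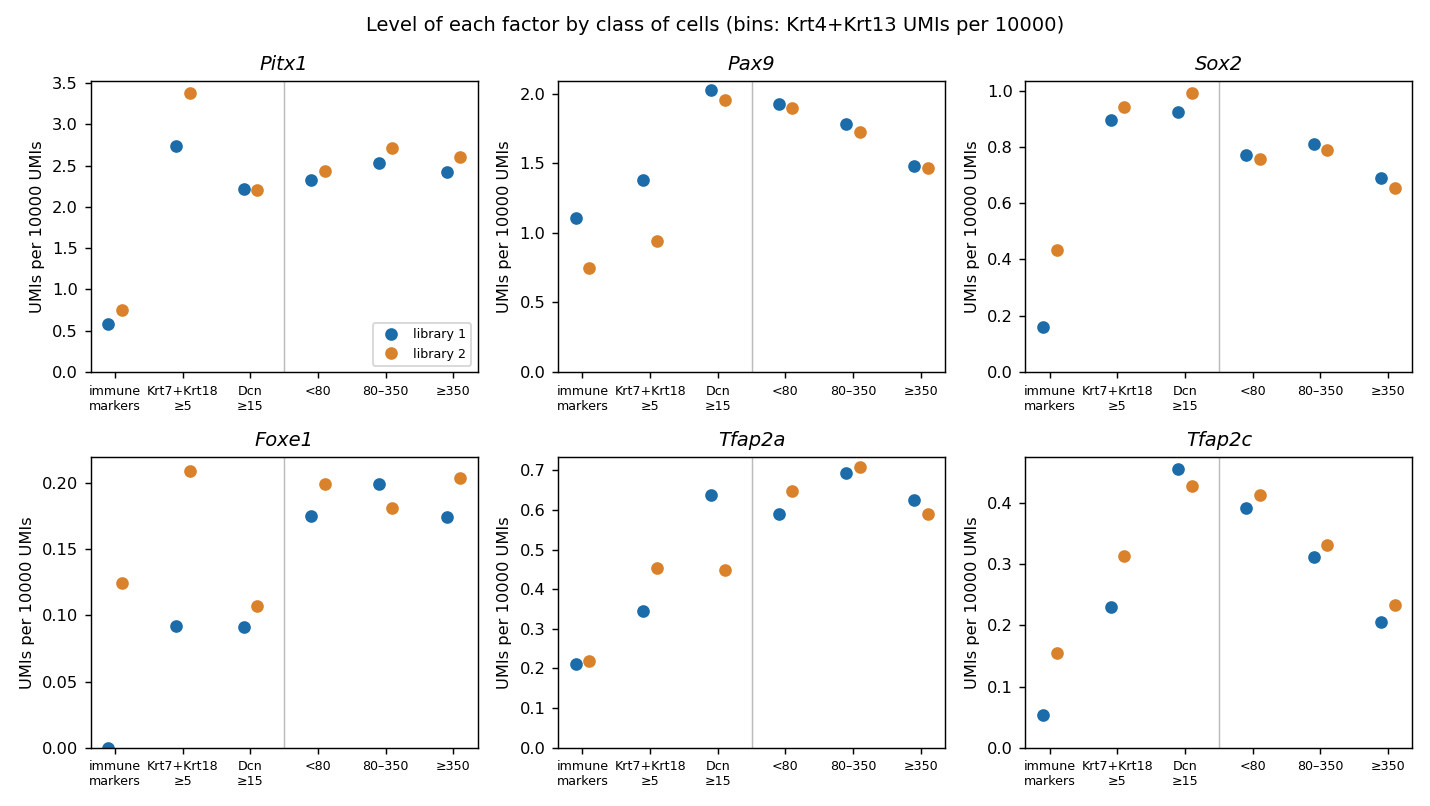
Level of each of the 6 factors (y axis, UMIs per 10000 UMIs) in 6 classes of cells (x axis), with 1 point for each library. Pitx1, Sox2, Foxe1 and Tfap2a sit at similar heights in the 3 keratin bins, Tfap2c descends across them, and every point of the immune cells lies below the points of the 3 bins.

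Pitx1 had 2.32 and 2.43 UMIs per 10000 below 80 (library 1 and library 2), 2.53 and 2.71 from 80 to 350, and 2.42 and 2.60 at 350 or above. The outer bins overlapped, and library 2 was the higher library in each. The log2 ratio of the highest to the lowest bin was 0.09 (0.05 to 0.12), a ratio of 1.06. When the deepest 5% of cells were left out, its mean over the libraries became -0.03. Scaled by the median of gene ratios in place of total UMIs, that mean became 0.35.

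Sox2 had 0.770 and 0.759 below 80, 0.812 and 0.789 from 80 to 350, and 0.690 and 0.655 at 350 or above. Its levels at 350 or above lay under those of the other bins in both libraries, with a log2 ratio to the lowest bin of -0.19 (-0.26 to -0.12). That sign turned to 0.08 when the bins were scaled by the median of gene ratios in place of total UMIs, so no direction is given for Sox2.

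Pax9 had 1.92 and 1.90 below 80, 1.78 and 1.72 from 80 to 350, and 1.48 and 1.47 at 350 or above. The values descended over the bins in both libraries without overlap. The log2 ratio of the highest to the lowest bin was -0.37 (-0.42 to -0.33), inside the 1.5-fold limit and close to the median gene. With median-of-ratios scaling it became -0.11.

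Foxe1 was sparse, with 0.175 and 0.199 per 10000 below 80, 0.199 and 0.181 from 80 to 350, and 0.174 and 0.204 at 350 or above. The spread between libraries was as wide as that between bins, and the log2 ratio of the highest to the lowest bin was 0.03 (-0.11 to 0.16). Its mean over the libraries became 0.28 with median-of-ratios scaling.

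Tfap2a had 0.589 and 0.647 below 80, 0.692 and 0.709 from 80 to 350, and 0.624 and 0.591 at 350 or above. Its highest levels lay in the middle bin, 0.18 (0.11 to 0.26) on the log2 scale over the lowest bin. The outer bins overlapped, with a log2 ratio of -0.03 (-0.10 to 0.05). Its mean over the libraries became 0.24 with median-of-ratios scaling.

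Tfap2c had 0.393 and 0.413 below 80, 0.313 and 0.331 from 80 to 350, and 0.206 and 0.233 at 350 or above. The 3 bins did not overlap. The log2 ratio of the highest to the lowest bin was -0.93 in library 1 and -0.83 in library 2, and -0.87 (-0.98 to -0.76) with the libraries pooled, a ratio of 0.548. The call was lost with median-of-ratios scaling, where the mean log2 ratio was -0.61, and under a 2-fold limit. In UMIs per cell, Tfap2c stood at 0.319 at 350 or above and 0.265 below 80 (median depths of 12984.5 and 5871 UMIs). When every cell was thinned to 3000 UMIs, a depth that all kept cells reached, 6.91% of cells at 350 or above (6.09 to 7.80) and 11.2% of cells below 80 (10.5 to 11.9) held a Tfap2c UMI. Without thinning these shares were 26.0% and 21.9%.

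Between neighbouring bins no member was called. From 80 to 350 against below 80, 8.34% of genes were called lower and 4.04% higher, and Tfap2c had a log2 ratio of -0.32 (-0.43 to -0.22). At 350 or above against 80 to 350, 18.6% of genes were called lower and 4.49% higher (1278 and 309 genes, or 665 and 519 with median-of-ratios scaling). There Tfap2c had -0.60 in library 1, past the limit, and -0.51 in library 2, short of it.

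**Figure D2:**
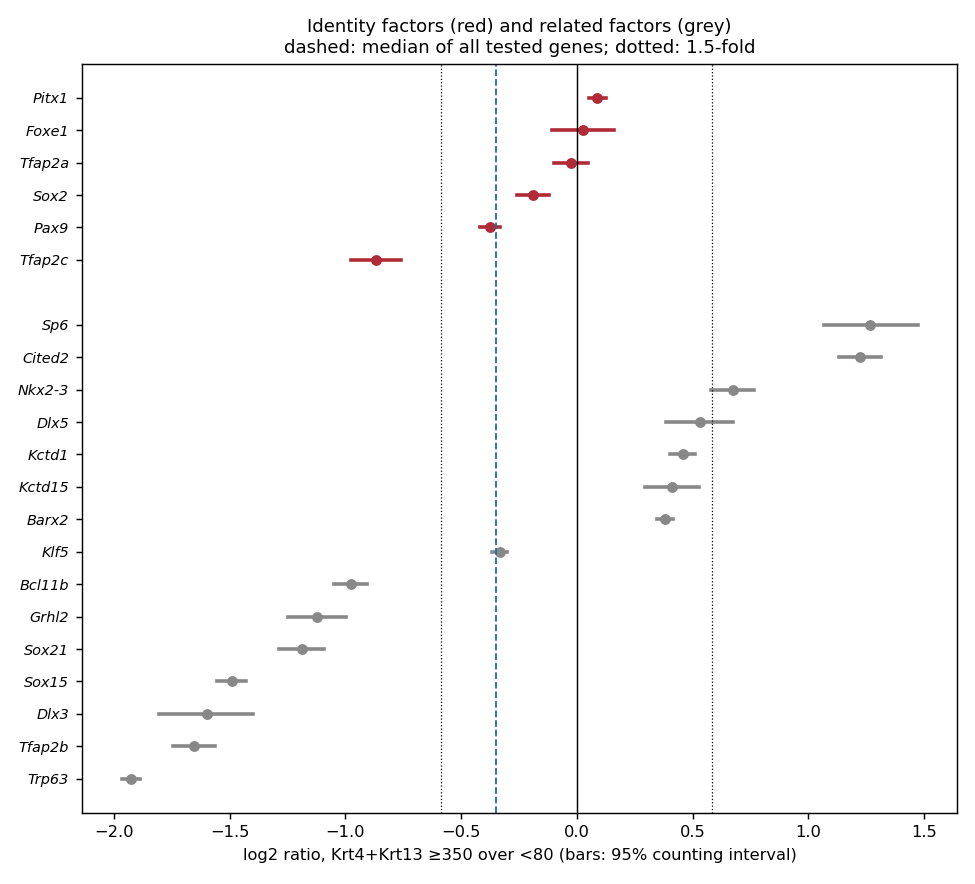
The log2 ratio of levels in cells with Krt4+Krt13 of at least 350 over cells below 80 (x axis) for the 6 factors in red and the tested related factors reported here in grey, libraries pooled, with bars for the 95% counting interval. Of the red points only Tfap2c, at -0.87, lies left of the dotted 1.5-fold line, while Trp63, Tfap2b, Dlx3, Sox15, Sox21, Grhl2 and Bcl11b do so among the grey ones.

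The cells of the 3 bins were cut into 10 steps of Krt4+Krt13 with equal numbers of cells in each library. The highest step level over the lowest was 1.20 for Pitx1, 1.29 for Sox2, 1.34 for Tfap2a, 1.42 for Foxe1, 1.501 for Pax9 and 2.25 for Tfap2c. The median over 7349 genes was 1.72. Pax9 had its highest level in step 2 (2.05) and its lowest in step 10 (1.36). Tfap2c had its highest level in step 1 (0.455) and its lowest in step 10 (0.202). Over the same steps the basal keratin Krt14 spanned 30.9-fold, the integrin gene Itgb4 spanned 16.1-fold and Trp63, the p63 regulator of basal keratinocytes, spanned 5.19-fold, each lowest in step 10.

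**Figure D3:**
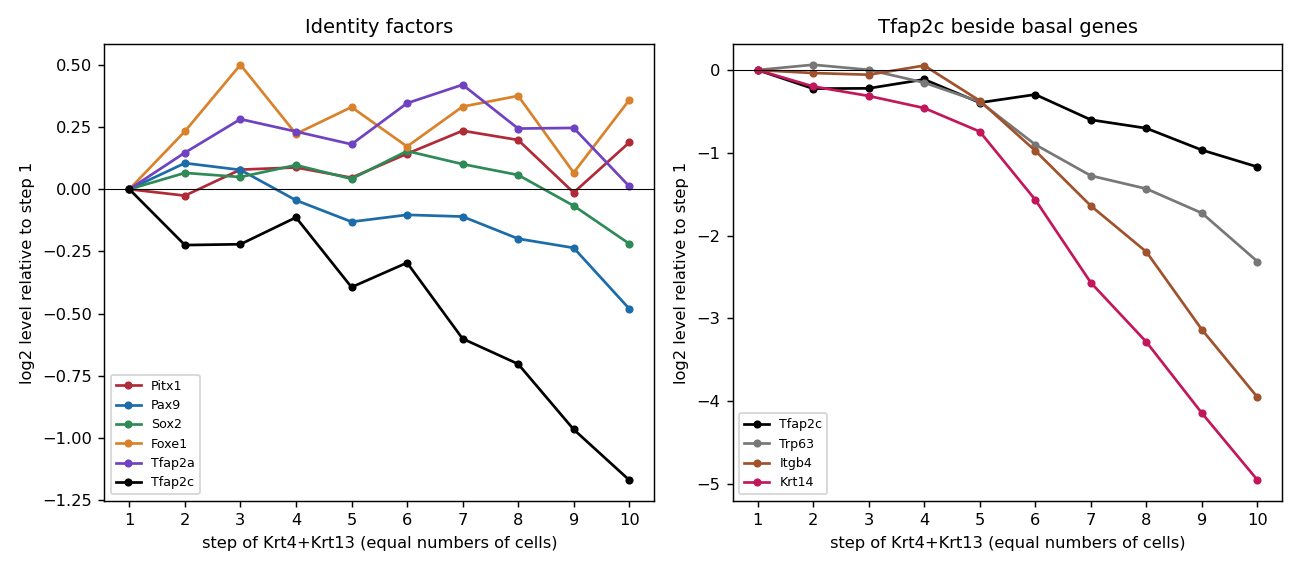
Level relative to the first of 10 Krt4+Krt13 steps, on a log2 scale (y axis), against step (x axis), libraries averaged, for the 6 factors (left) and for Tfap2c beside 3 basal genes (right). Pitx1, Sox2, Foxe1 and Tfap2a stay within about 1.5-fold of step 1, Pax9 ends at -0.48 and Tfap2c at -1.17, against -2.31 for Trp63 and -4.95 for Krt14.

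The balance of the AP-2 genes shifted over the bins. Tfap2c made up 39.5% of Tfap2a and Tfap2c UMIs below 80 (38.1 to 40.9), 31.5% from 80 to 350 (30.02 to 33.0) and 26.7% at 350 or above (25.3 to 28.0). In library 1 the shares were 40.0%, 31.1% and 24.8%, and in library 2 they were 39.0%, 31.9% and 28.3%. Being a share within the same cells, this value does not depend on the total by which levels are scaled. Over the 10 steps it was 45.1% in step 1 and 26.6% in step 10.

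Another AP-2 gene, Tfap2b, belongs to the paralogues of the members. Its level was 0.261 and 0.265 at 350 or above against 0.827 and 0.829 below 80, a log2 ratio of -1.65 (-1.75 to -1.56), and it was called lower. Of the paralogues reported here, 7 had no UMI, Tfap2e reached at most 0.060, and Sox21 and Tfap2b reached 0.1 in some class. Sox21 was also called lower, at 0.245 and 0.255 at 350 or above against 0.554 and 0.588 below 80. Of all genes, 33.3% were called lower between these bins.

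**Figure D4:**
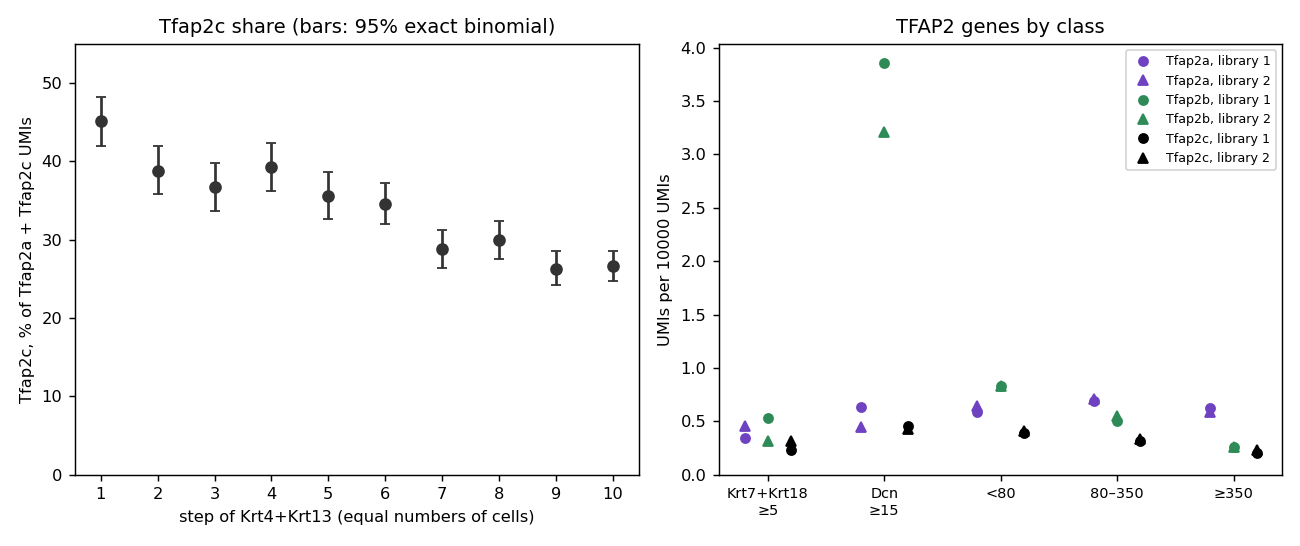
Left, the share of Tfap2c in Tfap2a plus Tfap2c UMIs (y axis, percent) over 10 steps of Krt4+Krt13, libraries pooled, with 95% exact binomial intervals; right, levels of the 3 AP-2 genes (y axis, UMIs per 10000 UMIs) by class, with a circle for library 1 and a triangle for library 2. The share is 45.1% in step 1 and 26.6% in step 10, and Tfap2b stands at 3.85 and 3.21 in the Dcn cells.

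Among 28 other factors of oral and craniofacial ectoderm, 13 reached 0.1 in some class and 9 were tested between the outer bins. Of those tested, 3 were called lower and 2 higher, where 33.3% of all genes were called lower and 9.09% higher. The tested factors had a median log2 ratio of 0.04. Trp63 (-1.93), Dlx3 (-1.60) and Bcl11b (-0.98) were called lower, and Sp6 (1.27) and Nkx2-3 (0.67) were called higher. Barx2, a homeobox factor, had 2.81 and 2.92 at 350 or above against 2.20 and 2.21 below 80 (log2 0.38). Dlx5 (0.53) was not called, and Dlx4, Tbx1 and Osr2 were too low in these bins to be tested.

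Of the 5 factors listed here as SOX2 and PITX1 neighbours, meaning possible partners, 4 were tested. Sox15 (-1.49), Grhl2 (-1.12) and Trp63 were called lower at 350 or above, Klf5 (-0.33) was not, and Sox7 was too low. Between these bins 33.3% of all genes were called lower and 9.09% higher. Of the 5 AP-2 cofactors, Cited2, a coactivator, was called higher at 0.655 and 0.751 at 350 or above against 0.290 and 0.317 below 80. Kctd1 (0.46) and Kctd15 (0.41), which repress AP-2 activity, were not called, and Cited4 and Cited1 were not tested. The 39 Hox genes, which give positional identity to trunk and limb tissue, held 12 UMIs in all cells of the 5 classes. Of these genes 32 had none, and the highest level was 0.000638.

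In the Krt7+Krt18 cells no member was called, with Pitx1 and Sox2 above and Pax9, Tfap2a and Tfap2c below their levels in the cells below 80. These 122 cells (68 in library 1 and 54 in library 2) carried the simple-epithelium keratins Krt8 (2.96 and 3.59 against 0.00922 and 0.0107 below 80) and Krt19 (6.29 and 3.21 against 0.0163 and 0.00600). They also carried the secreted-protein gene Wfdc2 (11.3 and 9.97 against 0.824 and 0.888). The glandular genes Aqp5 and Cftr were at 0 in them, as were Krt20, Atoh1, Isl1, Trpm5 and Gnat3 of the Merkel and taste list. Krt14 was at 93.7 and 120 in them and 88.2 and 89.9 below 80, and 106 of the 122 cells lay below 80. Their median depth was 4798.5 UMIs, and 13.9% were cycling.

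Pitx1 had 2.73 and 3.38 UMIs per 10000 in the Krt7+Krt18 cells, against 2.32 and 2.43 below 80, a log2 ratio of 0.33 (0.13 to 0.53). Sox2 had 0.895 and 0.942 in the Krt7+Krt18 cells, against 0.770 and 0.759 below 80 (log2 0.26, -0.12 to 0.61). In both genes the Krt7+Krt18 values lay above those of the cells below 80, inside the 1.5-fold limit.

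Pax9 had 1.38 and 0.942 in the Krt7+Krt18 cells, against 1.92 and 1.90 below 80, a pooled log2 ratio of -0.67 (-0.99 to -0.36). Tfap2a had 0.344 and 0.453 in the Krt7+Krt18 cells, against 0.589 and 0.647 below 80 (-0.67, -1.26 to -0.14). Tfap2c had 0.230 and 0.314 in the Krt7+Krt18 cells, against 0.393 and 0.413 below 80 (-0.61, -1.35 to 0.03). In each of these genes both Krt7+Krt18 values lay below both values of the cells below 80. None of these genes passed the rule, since 1 library fell short of 1.5-fold each time, in a comparison where 9.17% of 7931 genes were called lower and 13.5% higher. Pax9 fell short in library 1 (-0.48) and passed in library 2 (-1.01). With the Krt7+Krt18 cells limited to those below 80, 2 members (Pax9 and Tfap2c) passed, and with cycling cells left out, 2 passed (Foxe1 and Tfap2c). Foxe1 rested on 10 UMIs in 8 cells, 0.0918 and 0.209 against 0.175 and 0.199 below 80, and its interval (-1.497 to 0.45) covers both directions.

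Several related factors were called in these cells. Trp63, at 2.78 and 2.82 in the Krt7+Krt18 cells against 4.76 and 4.93 below 80, was called lower, as were Sox15 (-1.54), Tfap2b (-0.90), Dlx3 (-0.99) and Nkx2-3 (-1.74). Cited2 (0.83) was called higher. Of all genes, 9.17% were called lower and 13.5% higher in this comparison.

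In the Dcn cells Foxe1 was called lower, and the other 5 members were not called. Dcn encodes decorin, a matrix proteoglycan of fibroblasts, and the 290 Dcn cells (128 in library 1 and 162 in library 2) also carried all 6 basal keratinocyte markers. Of the 6 fibroblast markers, Dcn itself and Col1a2 were detected in them, and Col1a1, Col3a1, Lum and Pdgfra were at 0. Col1a2, a collagen gene, had 7 UMIs in 7 of the 290 cells (0.0456 and 0.0292 UMIs per 10000) and none in the 7185 cells below 80. In the Dcn cells Krt5 was at 32.4 and 28.8 against 32.8 and 30.4 below 80, and Krt14 was at 50.5 and 49.8 against 88.2 and 89.9. Of these cells 273 lay below 80, and 39.7% were cycling.

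Foxe1 had 0.0911 and 0.107 UMIs per 10000 in the Dcn cells, against 0.175 and 0.199 below 80. The groups did not overlap, and the log2 ratio was -0.90 (-1.64 to -0.25), from 19 UMIs in the Dcn cells. It was the member called, where 2.17% of 7690 genes were called lower and 3.12% higher. The call was lost when cells were thinned to 3000 UMIs (mean log2 ratio -0.66) and with a minimum level of 0.2, which leaves Foxe1 untested.

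Pitx1 had 2.21 and 2.21 in the Dcn cells, against 2.32 and 2.43 below 80. Pax9 had 2.03 and 1.96 in the Dcn cells, against 1.92 and 1.90 below 80, and Tfap2c had 0.456 and 0.428 against 0.393 and 0.413. The intervals of these log2 ratios, -0.25 to 0.04, -0.09 to 0.21 and -0.20 to 0.45, cover 0. Sox2 had 0.923 and 0.993 in the Dcn cells, against 0.770 and 0.759 below 80, a log2 ratio of 0.33 (0.11 to 0.54) that was not called. Tfap2a differed between libraries, with 0.638 and 0.448 in the Dcn cells against 0.589 and 0.647 below 80.

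Tfap2b moved further than any member there. It had 3.85 and 3.21 in the Dcn cells, against 0.827 and 0.829 below 80, a log2 ratio of 2.08 (1.96 to 2.20). The zinc-finger factor Klf5 was called lower, at 2.05 and 2.32 in the Dcn cells against 3.45 and 3.48 below 80, as was Dlx3 (-1.17). Of all genes, 2.17% were called lower and 3.12% higher there. Osr2, which acts in the palate, had 0.171 and 0.0973 in the Dcn cells against 0.0159 and 0.0219 below 80 and was too low to be tested.

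Immune cells served as a measure of epithelial RNA in cells that should lack these factors. The 59 cells with antigen-presentation or T and NK cell genes had a median depth of 7424 UMIs. Pitx1 had 0.580 and 0.746 in immune cells, against 2.32 and 2.43 below 80, a ratio of 0.288. The ratios of Pax9, Sox2, Tfap2a and Tfap2c were 0.461, 0.435, 0.348 and 0.291, and all of these genes were called lower, in a comparison where 17.1% of genes were called lower and 13.7% higher. Foxe1 had 4 UMIs in the immune cells (0 and 0.124 UMIs per 10000) and was not called. The Foxe1 levels of the Dcn cells, 0.0911 and 0.107, lay between these values, so how far Foxe1 falls in Dcn cells cannot be read. Pax9 had 1.11 and 0.746 in the immune cells. Its library 2 level in the Krt7+Krt18 cells, 0.942, lay between these, so how far Pax9 falls there cannot be read either. The keratinocyte genes Krt14, Krt5 and Trp63 had ratios of 0.184, 0.293 and 0.238 in the immune cells. Whether free RNA or doublets gave these UMIs was not tested.

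Cell by cell, the members were spread through each class. After thinning to 3000 UMIs, none of the 6 was detected in 16.8% of cells below 80 (15.9 to 17.6), 15.2% from 80 to 350 (14.1 to 16.3) and 20.05% at 350 or above (18.7 to 21.4). The share was 19.7% in Krt7+Krt18 cells (13.0 to 27.8), 17.9% in Dcn cells (13.7 to 22.8) and 64.4% in immune cells (50.9 to 76.4). Pitx1 was detected in 50.3% of thinned cells at 350 or above and 48.8% of thinned cells below 80, against 11.9% of immune cells. Pax9 was detected in 35.3% of thinned cells at 350 or above and 42.5% of thinned cells below 80. Without thinning, Pitx1 was found in 89.1% and Pax9 in 80.4% of cells at 350 or above, and in 72.5% and 63.8% of cells below 80.

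Within a bin the thinned counts varied little more than counting alone gives. The variance of Pitx1 over its mean was 1.11 at 350 or above and 1.11 below 80, and over the 6 members the ratio lay between 1.0003 and 1.14 at 350 or above and between 1.01 and 1.12 below 80. Pairs of members were found together about as often as the product of their shares gives. Over the 15 pairs the ratio of observed to product had a median of 1.03 at 350 or above (0.864 to 1.20) and of 1.02 below 80 (0.701 to 1.08). The lowest ratio below 80 belonged to Foxe1 with Tfap2c, from 28 cells. Counts this sparse hold little information on single cells.

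Foxe1 differed between cell states inside the bins. At 350 or above, 488 cells had Krt6a+Krt6b+Krt16 of at least 20 per 10000, keratins of stressed, wounded and fast-growing epithelium. Krt6a stood at 49.2 and 49.5 in these cells and Krt16 at 0.434 and 1.67, so Krt16 gave little of that sum. Foxe1 had 0.304 and 0.358 in these cells, against 0.146 and 0.170 in the other 3014 cells of the bin. The groups did not overlap, and the log2 ratio was 1.06 (0.86 to 1.26), a 2.09-fold difference called higher where 2.99% of 6312 genes were called higher and 1.65% lower. The cells with these keratins were deeper (median 16833 UMIs, against 12571 in the others) at a similar Krt4+Krt13 level (median 601 UMIs per 10000, against 589.8), and with all cells thinned to 3000 UMIs the mean log2 ratio was 1.14. The other members were not called, with 0.47 (0.41 to 0.53) for Pitx1, -0.37 for Pax9, -0.41 for Tfap2a, -0.41 for Tfap2c and -0.19 for Sox2.

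The same split was made in the other bins with cycling cells left out. From 80 to 350, Foxe1 had 0.387 and 0.383 in the 374 cells with these keratins, against 0.205 and 0.194 in 2230 cells without, and was called higher (log2 0.95, 0.65 to 1.24), where 3.72% of genes were called higher and 4.03% lower. Below 80, the 74 cells with these keratins had 0.211 and 0.335, against 0.183 and 0.212 in 3323 cells without, and the interval of the log2 ratio (-0.30 to 1.11) covers 0. In those 74 cells, Krt16 reached 45.6 against 0.0645 in the cells without. Pax9 was the member called there, at 0.844 and 0.700 in the cells with these keratins against 1.87 and 1.90 in those without, 2.42-fold lower (log2 -1.28, -1.69 to -0.89). In that comparison 17% of genes were called lower and 8.56% higher. The Pax9 levels in the 74 cells rest on 55 UMIs and lay under those of the immune cells in each library (1.11 and 0.746). How far Pax9 falls in these cells thus cannot be read.

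Cells at 350 or above with at least 10 UMIs per 10000 of the cornified-envelope genes Cnfn, Crct1, Sprr1a, Sprr1b, Sprr3 and Lor numbered 247. Foxe1 had 0.269 and 0.339 in them, against 0.162 and 0.187 in the other 3255 cells, and was called higher (log2 0.81, 0.56 to 1.05), where 5.64% of genes were called higher and 7.93% lower. Of the 247 cells, 120 also passed the limit for the sum of Krt6a, Krt6b and Krt16. In the 368 cells that passed that keratin limit and not the cornified one, Foxe1 had 0.320 and 0.312. This was 2.06-fold the pooled level of the 2887 cells with neither, where 1.84% of genes were called higher and 0.913% lower. In the 127 cells with cornified genes alone, Foxe1 had log2 ratios of 0.98 in library 1 and 0.39 in library 2 to those with neither and was not called.

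In the cornified cells Tfap2c had 0.150 and 0.107 against 0.213 and 0.249 in the others at 350 or above, with log2 ratios of -0.51 in library 1 and -1.22 in library 2, so it was called in library 2 alone. In the 127 cells with cornified genes alone it was called lower against cells with neither, at 0.127 and 0.106, 2.06-fold lower, where 7.52% of genes were called lower and 4.91% higher. That value rests on 33 UMIs.

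Cycling cells were set against other cells inside the bins. From 80 to 350, Foxe1 had 0.148 and 0.129 in 1708 cycling cells, against 0.240 and 0.228 in 2604 other cells. It was called lower (log2 -0.77, -0.997 to -0.54), where 2.14% of genes were called lower and 8.70% higher. With cells thinned to 3000 UMIs the mean log2 ratio was -0.93. Without the cells with Krt6a+Krt6b+Krt16 of at least 20 the log2 ratio was -0.70 (-0.97 to -0.43). Foxe1 was called again, where 1.84% of genes were called lower and 8.52% higher. Below 80, Foxe1 had 0.168 and 0.187 in 3788 cycling cells, against 0.184 and 0.217 in 3397 other cells, and no member was called, where 2.63% of genes were called lower and 8.92% higher. Whether the ratio differs between the bins was not tested.

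**Figure D5:**
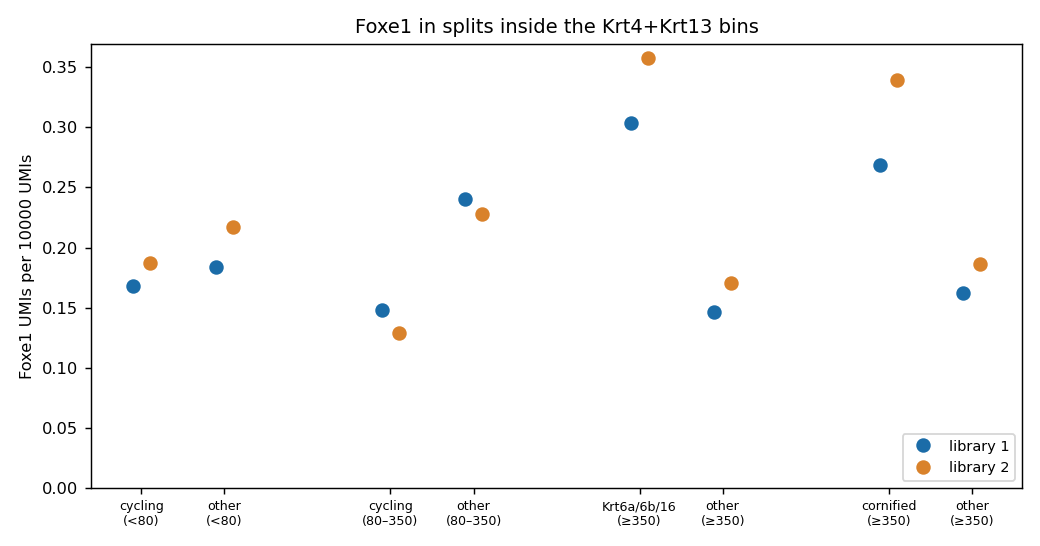
Foxe1 level (y axis, UMIs per 10000 UMIs) in cells with a feature (left point pair of each block) and without it (right pair), for cycling genes below 80 and from 80 to 350, and for Krt6a, Krt6b and Krt16 and for cornified-envelope genes at 350 or above, with 1 point for each library. In the cells with Krt6a+Krt6b+Krt16 of at least 20 the points stand at 0.304 and 0.358, against 0.146 and 0.170 in the others.

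Pitx1, Pax9, Sox2, Tfap2a and Tfap2c were not called between cycling and other cells in either bin. Their log2 ratios lay between -0.10 (Tfap2a) and 0.10 (Tfap2c) from 80 to 350, and between -0.09 (Pitx1) and 0.13 (Sox2) below 80.

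The genes with the most similar pattern over the 10 steps, the Krt7+Krt18 cells and the Dcn cells were named for each member, out of 9082 genes searched. A high value for the closest of so many genes does not show a link to the member. The measure was Pearson's r of log2 levels over these 12 points, which share libraries and depth and are not independent. Closest to Pitx1 was Rab7 (0.963), to Pax9 the ribosomal protein gene Rpl4 (0.977) and to Sox2 Gimap9 (0.968). Closest to Foxe1 was Egln3 (0.930), a prolyl hydroxylase of the oxygen-sensing pathway, to Tfap2a the ribosomal protein gene Rpl29 (0.945) and to Tfap2c Chst15 (0.980). Next in order were Usp25 and Tspan14 for Pitx1, Prkca and Rps6 for Pax9, Paf1 and Rerg for Sox2, Emp1 and Casp1 for Foxe1, Ugt1a6a and Egln2 for Tfap2a, and Tsen15 and Lrrcc1 for Tfap2c.

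By the GENCODE M21 annotation of GRCm38, Tfap2c lies at chr2:172549593-172558622, Sox2 at chr3:34650405-34652461, Foxe1 at chr4:46343609-46346412 and Pax9 at chr12:56691767-56712822, all on the plus strand. Tfap2a lies at chr13:40715302-40738376 and Pitx1 at chr13:55825051-55836192, both on the minus strand. Each member except Tfap2c overlaps another annotated gene. The antisense gene Gm12446 overlaps Foxe1 and had 0.0481 and 0.0493 UMIs per 10000 at 350 or above against 0.0750 and 0.0938 below 80. Slc25a21, opposite Pax9, had 0.0178 and 0.0145 at 350 or above against 0.0482 and 0.0493 below 80. Sox2 lies inside Sox2ot, which is not analysed here. The non-coding gene Gm28760 overlaps Pitx1 on the same strand and was also counted, so strand cannot tell reads of their overlap apart. Its levels are not given here. Whether counting used the strand is not given in the sources used here, so reads of opposite-strand pairs may be mixed as well.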

How the data were processed

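The authors deposited counts of UMIs per gene and cell barcode for 2 libraries, made with Cell Ranger on mm10 per the submitters' processing notes; the version and annotation are not given in the sources used here. The libraries held 67962712 UMIs in 7215 barcodes and 73935792 UMIs in 9076. A cell was kept if it had 500 or more genes and no more than 10% of its UMIs from mitochondrial genes. Immune cells (Cd74+H2-Ab1+H2-Aa+H2-Eb1 of at least 100 or Cd52+Nkg7+Cd7+Cd3g+Cd3d of at least 10 per 10000) were taken out first, then Krt7+Krt18 cells, then Dcn cells, then the bins, so classes do not overlap. Cycling cells had at least 5 per 10000 over Mki67, Top2a, Cdk1, Ccnb1, Cenpf, Birc5, Pcna, Mcm2, Mcm3, Mcm5, Mcm6, Rrm2 and Tyms. No doublet caller was run; an alternative leaves out the 5% deepest cells.

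UMIs were summed per class and library and divided by total UMIs. Class-defining genes were left out of the counts over all genes, and a summed count of 0 was set to 3. Ratios have exact conditional binomial 95% intervals and shares exact binomial ones. The size rule was tested on simulated counts of the outer bins, drawn with counting error only, in which some genes were changed by well over 1.5-fold. That test did not cover changes near 1.5-fold, changed genes as low as Foxe1, or the smaller Krt7+Krt18 and Dcn classes. Genes named are the 6 members, every gene of 0.1 or more in the related lists (paralogues, oral and craniofacial factors, Hox genes, AP-2 cofactors, SOX2 and PITX1 neighbours), the marker genes that describe a class, and the 3 genes most like each member (pseudocount 0.05). Markers of melanocytes summed to at most 0.00666 and of Schwann cells to at most 0.161 in any class of either library. Members, lists and rules were chosen with earlier results of these data known, and the splits inside bins after the data were seen. Scripts ran in Python 3.11.15, with scipy 1.17.1 for intervals, numpy 2.4.6 and pandas 2.3.3 for sums, and matplotlib 3.10.9 for plots. Some genes of the lists are not reported here by name, though counts over a list include them.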

Additional observations from a re-analysis of the deposited data

How the results depend on the processing

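No paired analysis was possible because the 2 libraries are technical replicates of a single group. With 1 sample, no setting shows how mice differ, and Foxe1, at 10 to 19 UMIs in the small classes, is limited by depth. No call of a member changed direction under any setting. The cause of each change below was not tested, except that fewer or more genes meet another minimum or fold.

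At 350 or above against below 80, the 1 member called lower (Tfap2c) became 0 with median-of-ratios scaling and with a 2-fold rule. Over all genes, 2395 lower and 653 higher became 1561 and 1025 with median-of-ratios scaling, 1237 and 389 with a 2-fold rule, and 5602 and 1302 with no minimum level, and a minimum of 0.2 left 1489 lower. From 80 to 350 against below 80, 623 lower and 302 higher became 219 and 137 (2-fold) and 1950 and 758 (no minimum). The lower count there was 382 with a minimum of 0.2 and 383 with limits of 60 and 250. At 350 or above against 80 to 350, 1278 lower and 309 higher became 665 and 519 (median-of-ratios), 457 and 146 (2-fold) and 3456 and 715 (no minimum). The lower count there was 766 with a minimum of 0.2 and 771 without cycling cells, and 0 to 1 members (Tfap2c) were called lower with 1 library left out.

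In Krt7+Krt18 cells, 0 members called lower became 1 with median-of-ratios scaling (Tfap2a), 2 with those cells limited to below 80, 2 without cycling cells, and 1 (Pax9) to 3 (Foxe1, Tfap2a and Tfap2c) with 1 library left out. Over all genes, 727 lower and 1073 higher became 1224 to 1345 and 1845 to 1985 with 1 library left out and 381 and 581 with a 2-fold rule. A minimum of 0.2 left 478 lower, and no minimum gave 4017 higher. In Dcn cells, the 1 member called lower (Foxe1) became 0 with thinning, a minimum of 0.2 or a 2-fold rule. Over all genes, 167 lower and 240 higher became 454 to 594 and 503 to 563 with 1 library left out, 264 and 367 (minimum 0.05), 81 and 123 (minimum 0.2), 432 and 2174 (no minimum), 311 and 430 (limits of 10 and 30) and 37 and 94 (2-fold). Thinning gave 267 lower.

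For the splits inside bins, alternatives were added after the data were seen. The 1 member lower in cycling cells from 80 to 350 (Foxe1) became 0 with a minimum of 0.2, limits of 100 and 450 or a 2-fold rule. In cornified cells, the 1 member higher (Foxe1) became 0 with a 2-fold rule. The 0 members lower there became 1 (Tfap2c) with the mean over cells, without the deepest 5% of cells and with limits of 100 and 450, and were 0 to 1 with 1 library left out. At 350 or above, Foxe1 was called higher in cells with Krt6a+Krt6b+Krt16 of at least 20 under every alternative run.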
